A study of Homo sapiens with 2 samples.

Results

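NEAT1 and MALAT1 are neighbouring genes on chromosome 11 that give rise to abundant long noncoding RNAs of the cell nucleus. The peaks described here are the 6 of 2840 deposited PRMT5 peaks that overlapped chromosome 11 from 65180000 to 65285000 (hg19), a window that holds both genes. The window was chosen by position, with the positions, scores and widths of these peaks already known from the same list. Counts, scores and widths of the 6 peaks are therefore descriptions, and no test was made on them. Both samples of the series (2 in all) came from untreated MDA-MB-231, a human line of triple-negative breast cancer. In the PRMT5 sample, DNA that had been crosslinked to protein with formaldehyde was recovered with an antibody against PRMT5 and sequenced. The input sample is DNA taken without an antibody, and it was not analysed here. Each group is 1 library, so no value below has a replicate, and the read depth behind the peaks is unknown.

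PRMT5 is an enzyme that places symmetric methyl groups on arginines of histones and of splicing proteins, and it works in a complex with WDR77. NEAT1 is the RNA scaffold of paraspeckles, nuclear bodies that hold RNA-binding proteins. It is made as a short form and a long form that share a start, and it is the long form that builds paraspeckles. MALAT1 RNA collects in nuclear speckles, which store splicing factors, and it has been studied widely in metastasis. The 3' end of MALAT1 is cut by RNase P, which releases a small tRNA-like RNA called mascRNA. In a ChIP-seq peak list, a peak marks DNA recovered with the antibody above the caller's threshold. It does not show whether the protein touched the DNA itself or the RNA and proteins made there.

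PRMT5 peaks lay inside NEAT1 but just outside MALAT1, and neither gene had a peak at its start. NEAT1, taken as 65190269 to 65213011 on the plus strand (22743 bp), overlapped 5 peaks. MALAT1, taken as 65265233 to 65273940 on the plus strand (8708 bp), overlapped 0 peaks. The remaining peak of the window began 70 bases past the last base of MALAT1, and it was by far the strongest of the 6. NEAT1 was thus tied to its peaks by overlap, and MALAT1 to its peak by closeness alone.

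**Figure D1:**
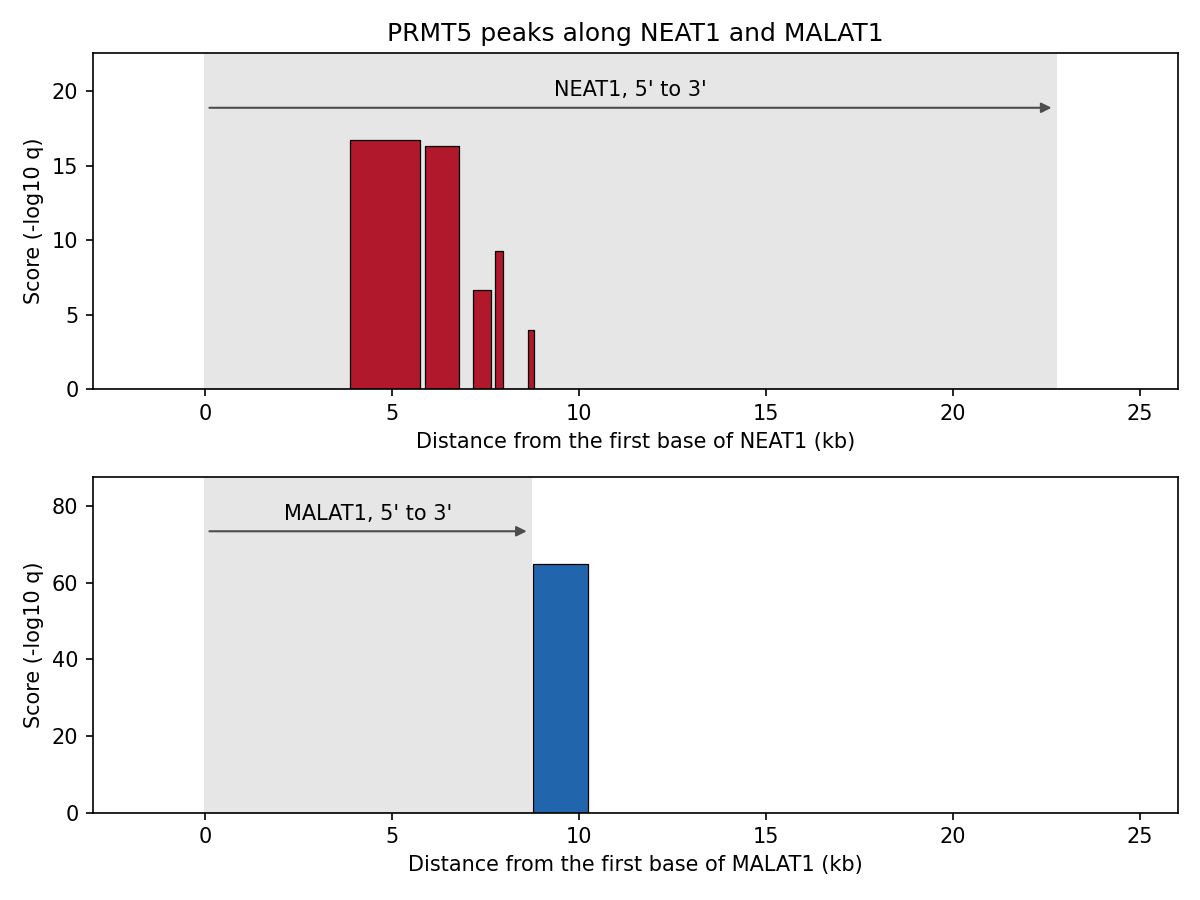
The score of each PRMT5 peak (taken as −log10 of q, bar height) is plotted against distance in kb from the first base of each gene. The upper panel is NEAT1 and the lower panel MALAT1. Bar width is peak width, grey marks the transcribed interval, and the score axes differ between the panels. The 5 NEAT1 peaks sit in the first part of the gene behind a stretch without peaks at its start. The 1456 bp peak begins 70 bases past the end of MALAT1.

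No peak lay near the start of MALAT1, and the DNA at that start is shown here because it is where a promoter peak would fall. The first base of the MALAT1 interval was 66162 bp past the end of the nearest peak before it and 8777 bp ahead of the nearest peak after it. The sequences are from the RefSeq promoter table of GRCh38.p14, which holds 2 starts of MALAT1. Each runs from 250 bases before the start to 50 bases after it, on the plus strand, at chr11:65497488-65497787 for the first and chr11:65498795-65499094 for the second. These coordinates belong to GRCh38.p14 and were not converted to the build of the peaks. Capitals mark GGGCGG, the GC box bound by SP1, and TATAAA, the TATA box, searched on both strands (CCGCCC and TTTATA on the other strand).

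MALAT1 start 1: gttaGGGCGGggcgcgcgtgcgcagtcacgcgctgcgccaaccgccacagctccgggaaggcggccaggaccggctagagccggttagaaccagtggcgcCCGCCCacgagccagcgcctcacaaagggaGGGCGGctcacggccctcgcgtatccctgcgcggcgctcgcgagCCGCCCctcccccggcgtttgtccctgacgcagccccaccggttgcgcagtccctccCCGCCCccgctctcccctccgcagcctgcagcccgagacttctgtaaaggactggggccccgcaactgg
MALAT1 start 2: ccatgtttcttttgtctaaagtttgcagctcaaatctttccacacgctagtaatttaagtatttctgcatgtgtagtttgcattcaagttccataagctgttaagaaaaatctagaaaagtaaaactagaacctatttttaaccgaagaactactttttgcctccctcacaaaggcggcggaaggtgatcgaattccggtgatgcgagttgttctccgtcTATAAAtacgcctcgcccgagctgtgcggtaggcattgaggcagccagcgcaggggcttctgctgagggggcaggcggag

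The 2 starts of MALAT1 differ in composition. The window of the first held 5 GC boxes and 0 TATA boxes, with 73.7% G and C and 37 CpG dinucleotides. The window of the second held 1 TATA box, which began 30 bases before the start, and 0 GC boxes, with 46.0% G and C and 14 CpG dinucleotides. Over the 35116 windows of 300 bases in that table, 45.0% held a GC box and 11.5% a TATA box, and the median was 58.7% G and C with 14 CpG dinucleotides. A match is a description of these letters and not a bound site.

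Within NEAT1, all 5 peaks lay in 1 stretch of 4943 bp, from 65194128 to 65199070. The first 3859 bases of the gene (16.97% of its length) and the last 13941 bases (61.3%) held no peak. Peaks covered 3653 bp, which was 16.1% of NEAT1 and 73.9% of the stretch itself. The part of NEAT1 under peaks therefore lay well past the shared start of the short and long forms, and the 3' end of the long form was outside it. No source used here gives the end of the short form, so the peaks were not placed relative to it.

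The NEAT1 peak nearest the start was the widest of the 6. It ran from 65194128 to 65196001, 1874 bp, with a score of 16.7. The score was taken as the −log10 of the authors' caller's q-value, so that a higher score means a smaller q. This widest peak was followed after a gap of 150 bp by a peak of 903 bp from 65196152 to 65197054, with a score of 16.3. These 2 peaks made up 2777 bp, or 76.0% of all NEAT1 sequence under peaks. Their scores were nearly equal although one was much wider than the other.

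The other 3 NEAT1 peaks were narrower and weaker. After a gap of 380 bp, a peak of 487 bp ran from 65197435 to 65197921 with a score of 6.62. After a further 90 bp came a peak of 230 bp from 65198012 to 65198241 with a score of 9.29. The last, after 670 bp, was a peak of 159 bp from 65198912 to 65199070 with a score of 3.97. Width thus fell from each NEAT1 peak to the next in the 5' to 3' direction. Score followed the same order apart from the 230 bp peak, which scored above the 487 bp peak before it.

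All gaps within the NEAT1 stretch were below 1 kb, so the 5 calls can also be read as 1 interrupted region. When peaks of the list with at most 1 kb between them were joined, leaving out the mitochondrial sequence, 2334 runs resulted, of which 2148 were single peaks. Runs of 5 or more peaks numbered 24 (1.03%), and the NEAT1 run was one of them. By sequence under peaks, 13 runs, NEAT1 included, had at least its 3653 bp. Most of the 24 lay in megabases richer in peaks than this one. Only 4, NEAT1 included, lay in a megabase of 13 or fewer peaks, the number around NEAT1. The other 3 were on chromosome 1 at 564448 to 570340 (7 peaks), chromosome 18 at 18516012 to 18520392 (5 peaks) and chromosome 4 at 68264643 to 68266744 (5 peaks). Whether any of the 24 runs lies in repeated sequence was not examined, and the handling of reads with several alignments is unknown.

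The peak past the end of MALAT1 was wide and among the strongest of the whole list. It ran from 65274010 to 65275465, 1456 bp, and its score was 65.03. By score it ranked 20 of 2840 and by width 22 of 2840. The 8708 bp of MALAT1 ahead of it and the 74939 bp between the NEAT1 stretch and this peak held no peak. That gap includes the 52221 bp between the 2 genes, where the RefSeq table of GRCh38.p14 lists FAUP4, ENEMAL and LINC02736.

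Whether this peak touches MALAT1 depends on where the gene is taken to end. The RefSeq gene of GRCh38.p14 is 8779 bp long, 71 bp longer than the interval used here, and the peak began 70 bases past that interval. If the whole difference lay at the 3' end, the peak would share its first bases with MALAT1. Almost all of the peak would still lie outside the gene. With fewer than 70 of the 71 bp at the 3' end, the peak would not touch MALAT1. How the 71 bp divide between the ends of the gene was not checked, so an overlap is not shown. In the same table the antisense RNA TALAM1 overlaps MALAT1 and runs past its 3' end, and mascRNA is listed inside MALAT1. A peak list carries no strand, so signal from MALAT1 and from TALAM1 cannot be told apart here. For NEAT1 the RefSeq gene and the interval used had the same length, 22743 bp.

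Of the 6 peaks, 5 were wider than the median of the list, all but the 159 bp peak of NEAT1, and their scores ranged from below the list's median to near its top. Of the 6, 2 were wider than 1 kb, the first NEAT1 peak and the one past MALAT1, against 1.94% (55 of 2840) of all peaks. The 6 had a median width of 695 bp, against 210 bp over the whole list and 209 bp over the other 152 peaks of chromosome 11. A score above 12.4, the upper quartile of the list, was reached by 3 of the 6 peaks and by 27.6% (42 of 152) of the other chromosome 11 peaks. Only the peak past MALAT1 exceeded a score of 20, which 9.44% (268 of 2840) of all peaks did. The median score was 12.8 for the 6 peaks, 9.29 for the 5 of NEAT1 and 7.80 for the whole list. The third and the fifth NEAT1 peaks scored below that last value. Since the window was chosen with these values known, the shares describe the 6 peaks and support nothing further.

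**Figure D2:**
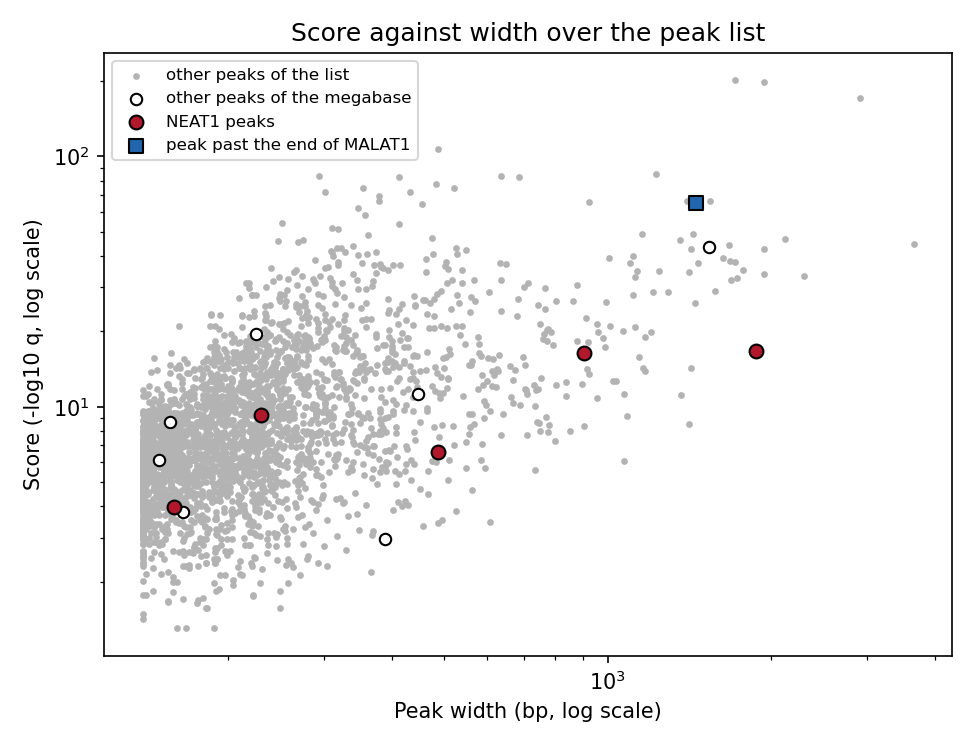
Score (taken as −log10 of q) is plotted against peak width in bp, both on log axes, for all peaks outside the mitochondrial sequence. Each point is 1 peak. The 1874 bp NEAT1 peak, at a score of 16.7, lies below the 8 peaks within 10% of its width, and the 1456 bp peak past MALAT1, at 65.03, lies near the top of its width.

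The 2 wide peaks stood at opposite ends of the scores found at their widths, a comparison made after their values were seen. For each peak, the peaks of the list within 10% of its width were taken, leaving out the 6 themselves and the mitochondrial peak. These were drawn from all chromosomes, and whether they lie in repeated sequence was not examined. The 1874 bp NEAT1 peak had 8 such peaks, with scores of 31.9 to 201 and a median of 36.5, and all 8 scored higher than its 16.7. The 1456 bp peak past MALAT1 had 13, with scores of 8.52 to 66.6 and a median of 37.6, and 11 of them scored lower than its 65.03. Among all 54 peaks wider than 1 kb outside the mitochondrial sequence, the NEAT1 peak ranked 8 by width and 43 by score. The peak past MALAT1 ranked 21 by width and 7 by score. Outside the window, chromosome 11 held 1 peak wider than 1 kb.

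The narrower NEAT1 peaks had ordinary to low scores for their widths. The 903 bp peak scored 16.3 against a median of 18.1 over 19 peaks of like width, of which 8 scored lower. The 487 bp peak scored 6.62 against a median of 15.7 over 83 peaks, of which 14 scored lower. The 230 bp peak, at 9.29, was close to the median of 8.87 over 591 peaks, of which 309 scored lower. The 159 bp peak scored 3.97 against a median of 6.21 over 590 peaks, of which 94 scored lower. Of the 5 NEAT1 peaks, 4 thus scored below the median for their width and 1 above it. They come from 1 gene and 1 library and are not independent of each other.

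The surrounding megabase, chromosome 11 from 65000000 to 66000000, held 13 peaks, the 6 of the window and 7 others. The window held 5.71 peaks per 100 kb and the rest of the megabase 0.782 per 100 kb, a ratio of 7.31. Because the window was chosen around known peaks, this ratio and those below are descriptions and show no enrichment. The edges of the window were not close to any peak. The nearest peak inside it lay 14128 bp from its left edge and the nearest outside 88185 bp from it. At the right edge these distances were 9535 and 371564 bp. With the NEAT1 stretch counted as 1 peak and other peaks within 1 kb joined in the same way, the ratio was 3.41. Against the rest of chromosome 11, with every peak counted, which held 0.113 peaks per 100 kb with the rest of the megabase included, it was 50.7.

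**Figure D3:**
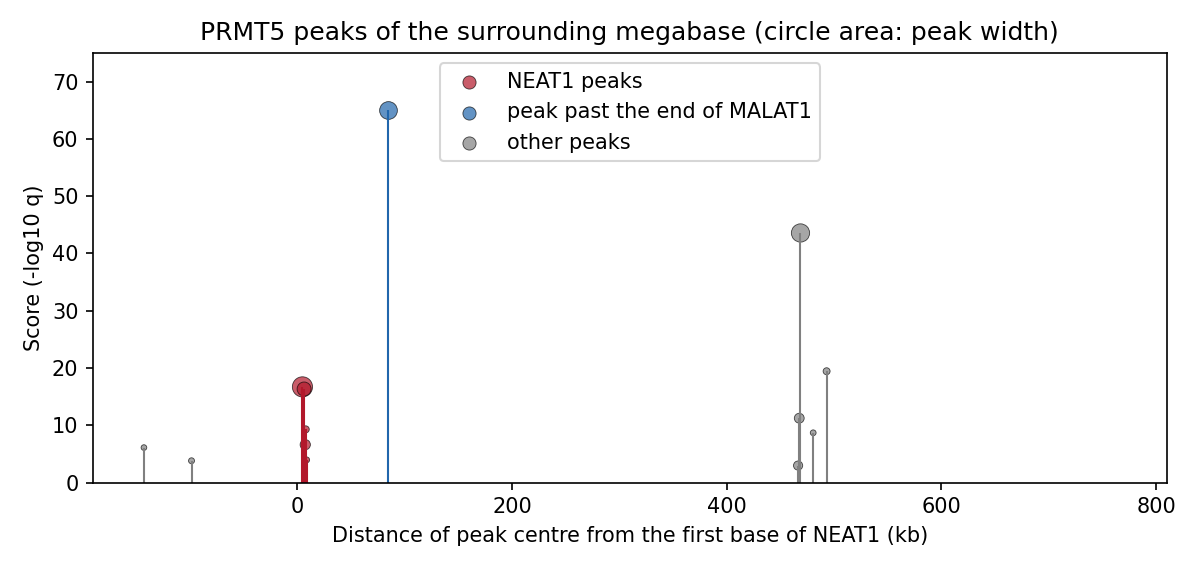
The score (taken as −log10 of q) is plotted for the 13 PRMT5 peaks of the surrounding megabase. The horizontal axis is the distance in kb of each peak's centre from the first base of NEAT1. Circle area is in proportion to peak width. The peak past the end of MALAT1 is the highest at 65.03, a peak of another group on the right reaches 43.6, and no peak lies between those groups.

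The 7 other peaks of the megabase had a median width of 225 bp and a median score of 8.69, against 695 bp and 12.8 for the 6 of the window and 210 bp and 7.80 for the whole list. Of these 7, 4 were wider than the median of the list. Ahead of NEAT1 lay a peak of 149 bp from 65047329 to 65047477 with a score of 6.11 and a peak of 165 bp from 65091651 to 65091815 with a score of 3.81. Beyond MALAT1 the next peak began only at 65656564. No gene is named for these positions, as no annotation of hg19 was used here.

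A group of 3 peaks from 65656564 to 65659756 was the part of the megabase most like NEAT1 and MALAT1 in width. It held a peak of 389 bp with a score of 2.97, a peak of 448 bp with a score of 11.2 and a peak of 1539 bp from 65658218 to 65659756 with a score of 43.6. The 1539 bp peak lay between the 2 wide peaks of the window in width. Its score, 43.6, also lay between 16.7 at NEAT1 and 65.03 past MALAT1. The last 2 peaks of the megabase had widths of 156 and 225 bp and scores of 8.69 and 19.4.

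RNA levels and the input were not analysed here, so these 6 peaks could not be set beside the background at NEAT1 and MALAT1 or beside the amount of either RNA. The sequence under the peaks was not examined. A part of either gene without a peak cannot be read as free of PRMT5, since the depth is unknown.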

How the data were processed

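One PRMT5 ChIP library and 1 input library were made from untreated MDA-MB-231 cells. Per the labels' protocols, chromatin was sonicated, adaptor-ligated fragments of 200 to 300 bp were cut from a gel, and 16 cycles of PCR followed. Per the submitters' processing notes, CASAVA 1.4, Bowtie2 and MACS2 were used with hg19, without roles or settings. The caller's control and the handling of duplicates and of reads with several alignments are not given in the sources used here. The deposited list has no header. The score deposited by the authors was taken as the −log10 of a q-value, because its smallest value, 1.30279, lies just above 1.301, the −log10 of 0.05. Starts, counted from 0 in the deposited list, were converted to count from 1.

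Peaks were matched to intervals by an overlap of 1 base or more. Gene intervals were supplied on hg19 together with the window, not taken from an annotation of that build. Chromosome lengths came from circlize 0.4.16 in R 4.3.3. Calculations used Python 3.11.15, numpy 2.4.6, pandas 2.3.3 and matplotlib 3.10.9. The overlap and joining steps were tested on a short made-up list with known answers. Both genes matched the RefSeq gene table by symbol, and MALAT1 matched the promoter table. The rule for naming was to give every peak of the window and of the megabase by position, with gene names for NEAT1 and MALAT1. The genes that the RefSeq table lists nearby, the runs on other chromosomes and the comparison by width were added after values were seen. The members, intervals and comparisons were chosen with earlier results of these data known. Alternatives changed the peaks used, the joining of neighbours, the rule of overlap and the reference region.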

Additional observations from a re-analysis of the deposited data

How the results depend on the processing

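In the highest-scoring 50% of the list the window held 4 peaks, 3 of them in NEAT1, which then had 13.2% of its length covered, with a median score of 16.5, a median width of 1180 bp and a density ratio of 8.52. In the highest-scoring 25% it held 3, 2 of them in NEAT1 (12.2% covered), with medians of 16.7 and 1456 bp and a ratio of 12.8. After merging within 1 kb or within 10 kb it held 2 regions, 1 of them in NEAT1, with medians of 40.9 and 3200.0 bp and a ratio of 3.41. Without the widest peak of the window the medians were 9.29 and 487 bp. Against the rest of chromosome 11 the density ratio was 50.7, and against chromosomes 1 to 10, 12 to 22 and X it was 62.4. These moves follow from the peaks left out, joined or compared. The count of 5 in NEAT1 was the same by peak midpoint and with the gene extended by 1 or 5 kb. The count of 0 in MALAT1 held by midpoint, by score and after merging. It became 1 with the gene extended by 5 kb and, in alternatives added after seeing the data, by 1 kb or at its 3' end by the 71 bp that separate the gene models. That last alternative places the whole 71 bp at the 3' end, which was not checked. No replicate could be left out, and no paired analysis was possible because the PRMT5 group is a single library.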
